A study of Mus musculus with 9 samples.

Results

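The genes described here are 8 regulators of alternative splicing in the nervous system, Ptbp1, Ptbp2, Srrm4, Nova1, Nova2, Rbfox1, Rbfox2 and Rbfox3. They were chosen by name, as the rows of the expression table that carry these symbols, and are 8 of the 38195 gene symbols in it. All 8 passed the filter on low values that left 14004 genes for testing. RNA was measured in the hypothalamus, the ventral forebrain region that controls hormones, feeding and body temperature, of CD-1 mice, an outbred stock, at stage E12.5. No treatment or mutation is given in the labels. Tissue of 3 zones was cut from slices, with 3 libraries each. They are the ventricular zone (VZ), which lines the ventricle and holds dividing progenitors, the medial mantle zone (medial MZ) beside it, and the lateral mantle zone (lateral MZ) farthest from the ventricle, where young neurons settle. Values are deposited FPKM, fragments per transcript length and per mapped fragment of the library. Levels can thus be set beside each other across genes as far as the lengths used hold, and these are not given. Nothing in the labels tells if a zone's libraries are from different embryos, so p-values measure the spread between these libraries alone, which may be technical.

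Neural progenitors and neurons splice many of the same transcripts differently. PTBP1 is a pyrimidine-tract-binding protein of most dividing cells that represses neuronal exons. It also represses an exon of its paralogue Ptbp2, without which the Ptbp2 transcript is degraded by nonsense-mediated decay, and the handover between these paralogues is a known step of neuronal differentiation. SRRM4, NOVA and RBFOX proteins then promote or repress sets of neuronal exons, many of them in genes of the synapse and cytoskeleton. The deposited values are 1 number per gene and library and cannot show which exons a transcript included.

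Library depth differed. The value of 1 fragment in genes with a single transcript gave 4.42e+06 to 8.82e+06 fragments in 7 libraries, 261258 in VZ replicate 3 and 539556 in medial MZ replicate 3. In those shallow libraries 1 fragment on a 2 kb transcript was worth 1.91 and 0.927 FPKM. Summed FPKM of 11 progenitor markers was 987 to 2155 in the VZ, 953 to 1121 in the medial MZ and 88.7 to 124 in the lateral MZ, and no progenitor marker was at 0 in any library. VZ replicate 2 stood apart, with 1480 FPKM over 10 neuron markers, against 594 and 418 FPKM in the other ventricular libraries. The same sum was 1397 to 1649 FPKM in the medial MZ and 2113 to 2395 FPKM in the lateral MZ. Neuron marker RNA was thus present in every zone, and the progenitor sums of the VZ and medial MZ overlapped through that library. In bulk tissue, fewer cells of a type and less RNA per cell cannot be told apart. Summed FPKM of 9 erythroid markers was 1895 to 2050 in the VZ, 1345 to 2453 in the medial MZ and 225 to 542 in the lateral MZ, and that of 9 microglia markers was 14.1 to 24.8, 16.3 to 30.6 and 39.3 to 53.6 FPKM in the same order of zones. Of the microglia markers, 5 were at 0 in VZ replicate 3 and 2 in medial MZ replicate 3. The part of these cells in the differences below was not tested.

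Ptbp1 and Ptbp2 are close paralogues, and the short exon through which the first controls the second is present in both genes. It is 34 bases long in each, and its sequence is shown because it is the site of the cross-regulation that the Ptbp1 to Ptbp2 ratio is read against. In mm10 with GENCODE M21, the Ptbp1 exon lies at chr10:79862014-79862047 on the + strand and is in 4 of 16 annotated transcripts, while 2 skip it. The Ptbp2 exon lies at chr3:119724612-119724645 on the - strand and is in 3 of 13, while 3 skip it. Capitals mark the 8 positions at which the exons differ, and the other 26 are identical.
Ptbp1 exon: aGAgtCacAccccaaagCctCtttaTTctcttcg
Ptbp2 exon: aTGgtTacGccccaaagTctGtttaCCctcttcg
In both, 64.7% of the bases are C or T.

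Ptbp1 was higher in the VZ and the medial MZ than in the lateral MZ, with the largest difference in mean FPKM of the 8 genes. The gene spans chr10:79854427-79864771 on the + strand. Its levels were 109, 77.7 and 151 FPKM in the VZ, 65.9, 74.7 and 65.6 FPKM in the medial MZ, and 18.8, 26.4 and 26.7 FPKM in the lateral MZ. No zones overlapped, although the lowest ventricular library, replicate 2, lay just above the highest medial one. Zone means were 113 ± 36.9 FPKM in the VZ, 68.8 ± 5.16 FPKM in the medial MZ and 23.9 ± 4.48 FPKM in the lateral MZ (SD, n = 3 each). Relative to the lateral MZ, Ptbp1 was higher by 2.15 ± 0.24 in the VZ (log2 of FPKM + 1, SE; limma adjusted p = 0.000851) and by 1.5 ± 0.24 in the medial MZ (limma adjusted p = 0.00929). The VZ minus medial MZ difference was 0.65 ± 0.24 and did not pass (limma adjusted p = 0.393, unadjusted 0.0223). Both calls against the lateral zone were made in all 20 alternative settings, and without both shallow libraries the differences were 1.92 and 1.53. The lowest ventricular value came from the library with the most neuron marker RNA, and the part of that library's makeup in the medial comparison was not tested; without it the difference was 0.89 (limma adjusted p = 0.0547). Ptbp1 shares bases with Plppr3 and other genes on the opposite strand, and the sources used here do not say whether fragments were counted by strand. The antisense gene Gm17134 had 10.6 to 40.1 FPKM in the VZ, 7.30 to 18.9 FPKM in the medial MZ and 1.51 to 7.20 FPKM in the lateral MZ, and its share in the Ptbp1 values cannot be told apart.

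Ptbp2, the form that takes over in neurons, showed no called difference between any zones. It spans chr3:119718742-119784466 on the - strand. Its levels were 71.0, 63.6 and 113 FPKM in the VZ, 69.6, 68.9 and 113 FPKM in the medial MZ, and 56.7, 50.6 and 61.6 FPKM in the lateral MZ. Its highest values were those of the shallow libraries, and the lateral values lay below all others. The VZ minus lateral MZ difference was 0.50 ± 0.26, with a 95% interval of -0.07 to 1.08 (limma adjusted p = 0.186), and without both shallow libraries it was 0.26. The medial MZ minus lateral MZ difference was 0.53 ± 0.26, with an interval of -0.04 to 1.1 (limma adjusted p = 0.272), and without both shallow libraries it was 0.30. Between the VZ and the medial MZ the difference was -0.03 ± 0.26, with an interval of -0.60 to 0.54 (limma adjusted p = 0.974). The first and second of these intervals reach past 1 on the log2 scale, so the lack of a call does not show equal levels.

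**Figure D1:**
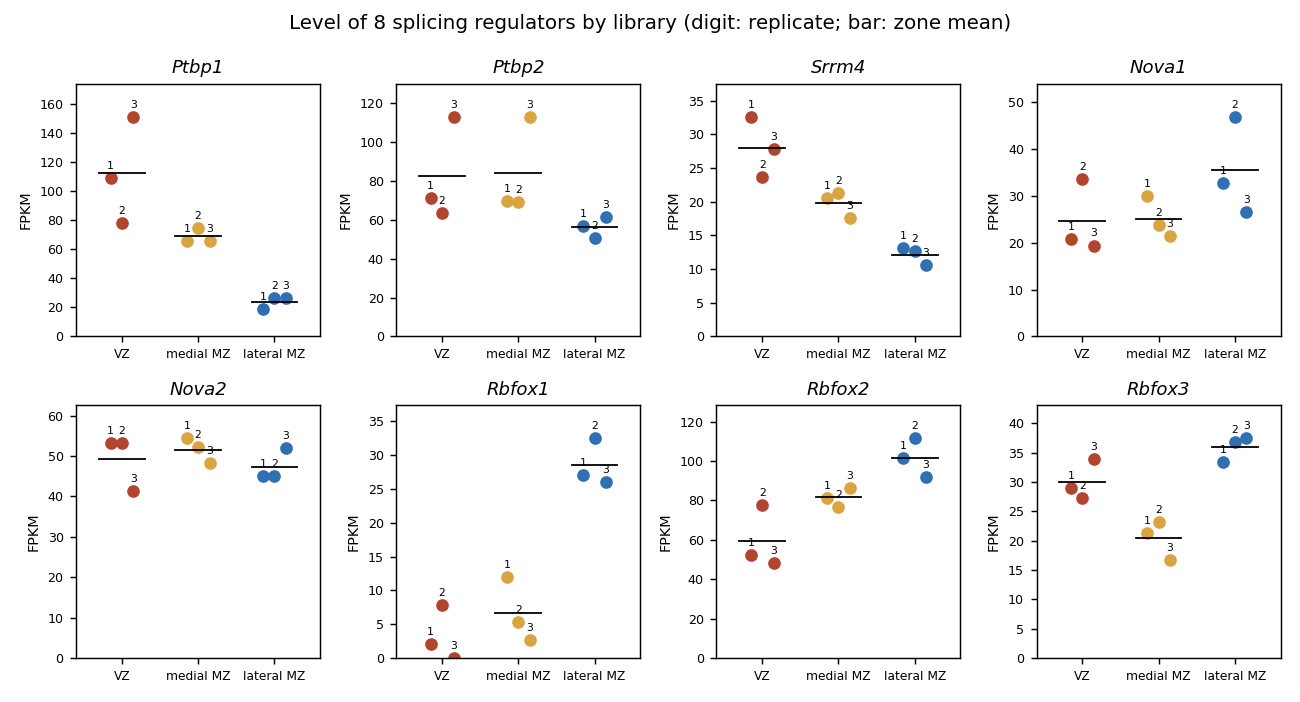
Level of each of the 8 genes in FPKM (vertical axis, from 0) in the VZ, medial MZ and lateral MZ. Points are libraries with their replicate number and bars are zone means, drawn only where no library is at 0; Ptbp1 lies at 77.7 to 151 FPKM in the VZ and at 18.8 to 26.7 FPKM in the lateral MZ.

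The ratio of Ptbp1 to Ptbp2 within a library does not depend on how that library was scaled. It was 1.53, 1.22 and 1.34 in the VZ, 0.947, 1.08 and 0.580 in the medial MZ, and 0.331, 0.522 and 0.433 in the lateral MZ. Ptbp1 thus exceeded Ptbp2 in all 3 ventricular libraries and in 1 medial library, and Ptbp2 exceeded Ptbp1 in all 3 lateral libraries, with no overlap between zones. On which side of 1 a ratio falls also depends on the transcript lengths used for FPKM and on the counting by strand. Neither is given. The mean log2 ratio was 0.44 ± 0.16 in the VZ, -0.25 ± 0.47 in the medial MZ and -1.25 ± 0.33 in the lateral MZ (SD, n = 3 each). The zones differed by an exact permutation test over all ways of dealing the libraries to 3 zones (p = 0.00357, the smallest this test can give; 0.00714 adjusted over the 2 ratios compared). The difference in log2 ratio was 0.69 ± 0.29 between the VZ and the medial MZ, 1.69 ± 0.21 between the VZ and the lateral MZ, and 1.0 ± 0.33 between the medial MZ and the lateral MZ (SE). Each of these gave an exact p = 0.10, the smallest that 3 libraries against 3 allow. Without both shallow libraries the VZ minus lateral MZ difference was 1.70 (exact p = 0.00952 over 3 zones, not adjusted over the 2 ratios). As Ptbp2 itself was not called in any comparison, the called change within this pair was that of Ptbp1.

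**Figure D2:**
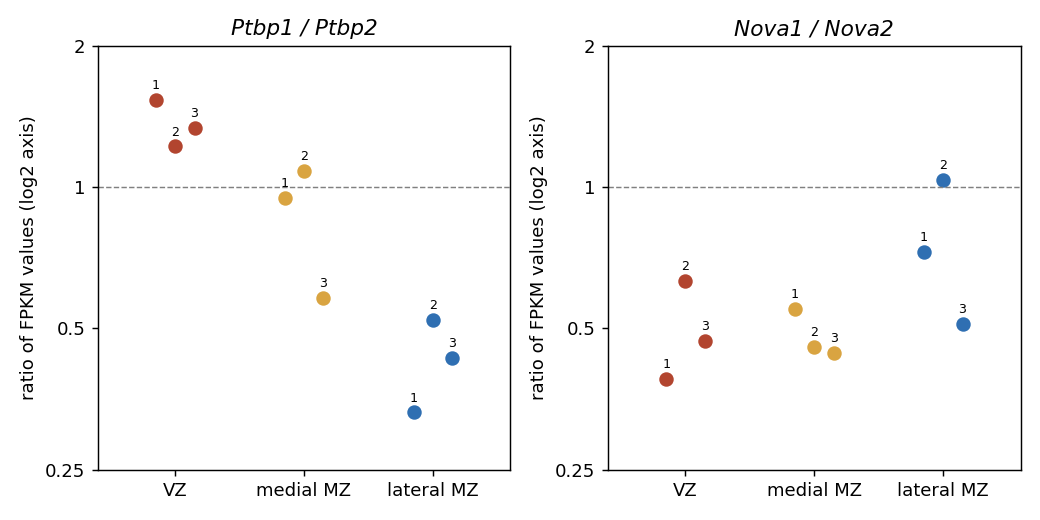
Ratio of FPKM values within each library on a log2 axis, for Ptbp1 over Ptbp2 (left) and Nova1 over Nova2 (right), in the VZ, medial MZ and lateral MZ. Points are libraries with their replicate number and the dashed line marks a ratio of 1; the Ptbp1 to Ptbp2 ratio lies between 1.22 and 1.53 in the VZ and between 0.331 and 0.522 in the lateral MZ.

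The sequence around a RefSeq start of these paralogues is shown because one of them changed between zones and the other did not pass. The windows are from RefSeq on GRCm38.p6, 300 bases each, chr10:79854182-79854481 on the + strand for Ptbp1 and chr3:119783339-119783638 on the - strand for Ptbp2. Capitals mark matches to the E-box CANNTG and to the GC box GGGCGG on either strand; overlapping GC boxes were each counted, and no E-box overlapped a GC box in these windows.
Ptbp1 promoter: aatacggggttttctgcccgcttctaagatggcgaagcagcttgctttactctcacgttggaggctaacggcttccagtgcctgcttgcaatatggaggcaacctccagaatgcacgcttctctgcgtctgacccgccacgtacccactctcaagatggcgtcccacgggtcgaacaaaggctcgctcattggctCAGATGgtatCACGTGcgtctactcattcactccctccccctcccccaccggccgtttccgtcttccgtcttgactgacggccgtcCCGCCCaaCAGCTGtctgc
Ptbp2 promoter: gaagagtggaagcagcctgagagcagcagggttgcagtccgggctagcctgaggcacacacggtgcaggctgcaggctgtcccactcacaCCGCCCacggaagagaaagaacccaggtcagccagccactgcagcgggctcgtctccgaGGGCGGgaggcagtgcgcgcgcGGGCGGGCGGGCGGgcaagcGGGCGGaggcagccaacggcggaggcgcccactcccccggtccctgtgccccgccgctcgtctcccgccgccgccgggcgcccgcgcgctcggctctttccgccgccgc
The Ptbp1 window held 3 E-boxes and 1 GC box, with 58.3% G or C and 22 CpG. The Ptbp2 window held no E-box and 6 GC boxes, with 74.7% G or C and 36 CpG. Of 32851 mouse promoter windows of this length, 72.3% held an E-box and 17.6% at least 3. A GC box was in 35.7% of them, and 10.7% held at least 3. The median window had 52.7% G or C and 7 CpG. The Ptbp1 window covers the start of the gene span given above. The Ptbp2 window lies wholly inside the span given above, downstream of its start, so the RefSeq and GENCODE starts of Ptbp2 differ. These matches describe letters and no binding was measured.

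Srrm4, which encodes an activator of neuronal microexons, was highest in the VZ. It spans chr5:116439275-116591817 on the - strand. Its levels were 32.7, 23.7 and 27.8 FPKM in the VZ, 20.5, 21.4 and 17.6 FPKM in the medial MZ, and 13.1, 12.7 and 10.7 FPKM in the lateral MZ. No zones overlapped, and all lateral libraries lay below all medial ones. The mean was 28.1 ± 4.48 FPKM in the VZ, 19.8 ± 1.99 FPKM in the medial MZ and 12.2 ± 1.31 FPKM in the lateral MZ (SD, n = 3 each). Srrm4 was higher in the VZ than in the lateral MZ by 1.14 ± 0.19 (limma adjusted p = 0.00473), in all 20 alternatives as well. The medial MZ minus lateral MZ difference of 0.66 ± 0.19 did not pass (limma adjusted p = 0.0888), but passed without both shallow libraries at 0.74 (limma adjusted p = 0.0321). For the VZ minus medial MZ comparison the difference was 0.47 ± 0.19 (limma adjusted p = 0.393). An antisense gene that overlaps Srrm4, listed as 2410137F16Rik, had 0.328 to 3.55 FPKM.

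Nova1 and Nova2 encode KH-domain proteins that regulate neuronal exons, and neither was called in any comparison with all libraries weighted equally. Nova1 lies at chr12:46694517-46818929 on the - strand and Nova2 at chr7:18925888-18965319 on the + strand. Nova1 had 20.7, 33.6 and 19.4 FPKM in the VZ, 29.9, 23.8 and 21.4 FPKM in the medial MZ, and 32.7, 46.9 and 26.6 FPKM in the lateral MZ. The zones overlapped, and replicate 2 was the highest library in the ventricular and in the lateral zone. The VZ minus lateral MZ difference for Nova1 was -0.51 ± 0.27, with a 95% interval of -1.12 to 0.09 (limma adjusted p = 0.203), and the medial MZ minus lateral MZ difference was -0.46 ± 0.27 (limma adjusted p = 0.372). Without lateral MZ replicate 2 these were -0.30 and -0.24, and with array weights Nova1 passed in the VZ minus lateral MZ comparison (difference -0.59, limma adjusted p = 0.0340). Its VZ minus medial MZ difference was -0.05 ± 0.27, with an interval of -0.66 to 0.55 (limma adjusted p = 0.947). Nova2 had 53.1, 53.3 and 41.3 FPKM in the VZ, 54.4, 52.2 and 48.2 FPKM in the medial MZ, and 45.0, 45.2 and 52.0 FPKM in the lateral MZ. It had the narrowest range of the 8 genes. Its VZ minus lateral MZ difference was 0.05 ± 0.15, with an interval of -0.30 to 0.39 (limma adjusted p = 0.847), and was -0.13 under trimmed mean scaling. The difference was -0.07 ± 0.15 for the VZ minus medial MZ (limma adjusted p = 0.862) and 0.12 ± 0.15 for the medial MZ minus lateral MZ (limma adjusted p = 0.705). The Nova1 to Nova2 ratio was 0.390, 0.631 and 0.470 in the VZ, 0.550, 0.456 and 0.444 in the medial MZ, and 0.728, 1.04 and 0.512 in the lateral MZ. Those ratios overlapped between zones (exact permutation p = 0.129, the same adjusted over the 2 ratios).

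The Rbfox genes encode RNA-binding proteins that recognise UGCAUG, and they differed in their pattern. Rbfox1 lies at chr16:5885355-7411526 on the + strand, Rbfox2 at chr15:77078990-77307004 and Rbfox3 at chr11:118489762-118911597 on the - strand. Rbfox1 had 2.09, 7.83 and 0 FPKM in the VZ, 11.9, 5.29 and 2.66 FPKM in the medial MZ, and 27.0, 32.5 and 26 FPKM in the lateral MZ. All lateral libraries lay above all others, while the ventricular and medial libraries overlapped. The 0 and the 2.66 FPKM are from the shallow libraries, and the highest ventricular value is from replicate 2, the one rich in neuron marker RNA. Rbfox1 was lower in the VZ than in the lateral MZ by 3.29 on the fitted log2 scale (difference -3.29 ± 0.71, limma adjusted p = 0.0141), a size that depends on the pseudocount, being -4.57 with 0.1 FPKM, and on the library at 0, being -2.49 without both shallow libraries (limma adjusted p = 0.00748). The call did not pass without lateral MZ replicate 1 (limma adjusted p = 0.0520) or replicate 2 (limma adjusted p = 0.0572). The medial MZ minus lateral MZ difference of -2.14 ± 0.71 did not pass (limma adjusted p = 0.131), and passed without both shallow libraries (difference -1.70, limma adjusted p = 0.0472).

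Rbfox2, the broadly expressed member of the family, had 52.4, 77.7 and 48.4 FPKM in the VZ, 81.4, 76.8 and 86.4 FPKM in the medial MZ, and 102, 112 and 92.0 FPKM in the lateral MZ. The lateral libraries lay above all others, and VZ replicate 2 reached into the medial range. Rbfox2 was lower in the VZ than in the lateral MZ, with a difference of -0.79 ± 0.19 (limma adjusted p = 0.0199) and of -0.66 without both shallow libraries (limma adjusted p = 0.0280). That call did not pass without VZ replicate 1, lateral MZ replicate 1 or lateral MZ replicate 2 (limma adjusted p = 0.0657, 0.0714 and 0.0808). The VZ minus medial MZ difference was -0.48 ± 0.19 (limma adjusted p = 0.393), and without VZ replicate 2 it was -0.68 and passed (limma adjusted p = 0.0406). The medial MZ minus lateral MZ difference was -0.31 ± 0.19 (limma adjusted p = 0.379).

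Rbfox3 encodes NeuN, a protein used to label mature neurons. It had 29.0, 27.2 and 33.9 FPKM in the VZ, 21.3, 23.1 and 16.8 FPKM in the medial MZ, and 33.5, 36.8 and 37.5 FPKM in the lateral MZ. The lowest zone was thus the medial one, apart from both others, and the ventricular and lateral ranges met at 33.5 to 33.9 FPKM. Rbfox3 was lower in the medial MZ than in the lateral MZ, with a difference of -0.80 ± 0.17 (limma adjusted p = 0.0354), which passed in 11 of 20 alternatives (limma adjusted p from 0.00117 to 0.158). It did not pass without VZ replicate 1 (0.0563) or without any single medial or lateral MZ library (0.0709 to 0.158), nor with no trend of the spread with level (0.0589). Without both shallow libraries it was -0.67 (limma adjusted p = 0.0150). Between the VZ and the medial MZ the difference was 0.54 ± 0.17 (limma adjusted p = 0.393), and between the VZ and the lateral MZ it was -0.25 ± 0.17, with a 95% interval of -0.65 to 0.14 (limma adjusted p = 0.322). NeuN protein was not measured.

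**Figure D3:**
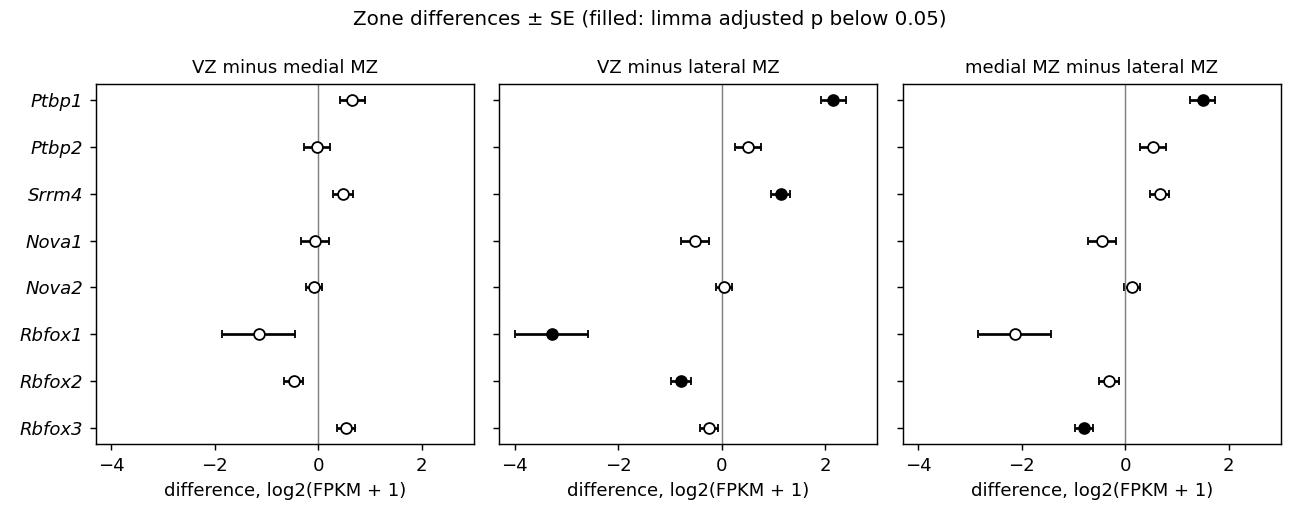
Difference between zones in log2(FPKM + 1) for the 8 genes, with bars of 1 SE from the limma fit; filled points passed an adjusted p of 0.05. The largest positive value is 2.15 for Ptbp1 and the largest negative one is -3.29 for Rbfox1, both for the VZ minus lateral MZ.

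As a family, Rbfox RNA summed to 83.4, 113 and 82.3 FPKM in the VZ, 115, 105 and 106 FPKM in the medial MZ, and 162, 181 and 155 FPKM in the lateral MZ. Rbfox2 made up most of it in every library, 58.8 to 68.9% in the VZ, 71.0 to 81.6% in the medial MZ and 59.2 to 62.7% in the lateral MZ. The share of Rbfox1 was 0 to 6.94% in the VZ, 2.52 to 10.4% in the medial MZ and 16.7 to 18% in the lateral MZ. Rbfox3 held 24.1 to 41.2% in the VZ, 15.9 to 22.0% in the medial MZ and 20.4 to 24.1% in the lateral MZ. The lateral zone was set apart by the Rbfox1 share, whose lateral values lay above all others.

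**Figure D4:**
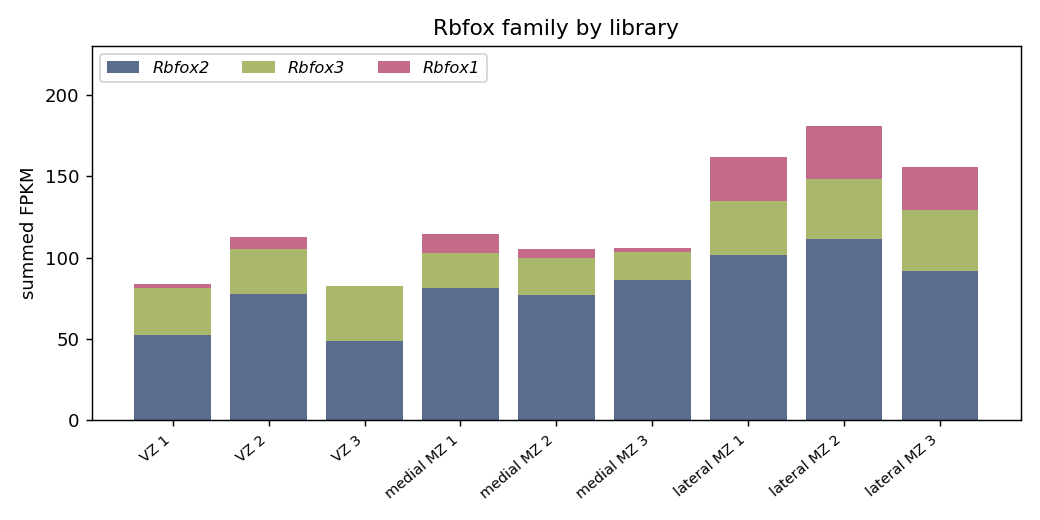
Summed FPKM of Rbfox2, Rbfox3 and Rbfox1 (stacked bars from 0) in each library of the VZ, medial MZ and lateral MZ. The sums lie between 82.3 and 113 FPKM in the VZ and between 155 and 181 FPKM in the lateral MZ.

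Counted together, 2 of the 8 genes were higher and 2 were lower in the VZ than in the lateral MZ, where 10.7% of all tested genes were higher and 8.93% lower, 19.6% in all. In the medial MZ minus lateral MZ comparison 1 was higher and 1 lower, against 3.58% and 0.543% of all genes, 4.12% in all. None passed between the VZ and the medial MZ, where limma called 0% of all genes; at an unadjusted p below 0.05 there were 4 of the 8 and 1661 of all genes, or 11.9%. At that unadjusted level there were also 4 of 8 in each of the VZ minus lateral MZ and medial MZ minus lateral MZ comparisons, beside 35.8% and 20.6% of all genes. Zones did not overlap for 3 of 8 genes in the VZ minus medial MZ comparison, 5 in the VZ minus lateral MZ and 6 in the medial MZ minus lateral MZ comparison, beside 14.7%, 45.1% and 40.4% of all tested genes. The median difference of the 8 genes was -0.04, -0.10 and -0.10 in these comparisons, beside -0.05, 0.05 and 0.10 over all genes. The VZ minus lateral MZ and medial MZ minus lateral MZ comparisons share the lateral libraries. Trimmed mean scaling lowered the median of all genes in the VZ minus lateral MZ comparison by over 0.1, being -0.10 with it and 0.05 as deposited, and 42.6% of calls were then higher, against 54.5% as deposited; the 4 called genes kept their direction and their call, with Ptbp1 at 1.98 and Rbfox2 at -0.97. In the medial MZ minus lateral MZ comparison that share was 75.6% after trimmed mean scaling and 66.6% after quantile normalization, against 86.8% as deposited, and the calls of Ptbp1 and Rbfox3 held under trimmed mean scaling.

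In order of level, the VZ ran Ptbp1, Ptbp2, Rbfox2, Nova2, Rbfox3, Srrm4, Nova1 and Rbfox1. Only the steps from Nova2 to Rbfox3 and from Nova1 to Rbfox1 separated neighbours whose libraries did not overlap. The medial MZ ran Ptbp2, Rbfox2, Ptbp1, Nova2, Nova1, Rbfox3, Srrm4 and Rbfox1, where the libraries of Ptbp2 and Rbfox2, of Nova1 and Rbfox3, and of Rbfox3 and Srrm4 overlapped. In the lateral MZ the order was Rbfox2, Ptbp2, Nova2, Rbfox3, Nova1, Rbfox1, Ptbp1 and Srrm4, and Rbfox2, at 102 ± 9.75 FPKM (SD, n = 3), stood clear of Ptbp2, at 56.3 ± 5.54 FPKM. There the libraries of Ptbp2 and Nova2 overlapped, as did those of each neighbouring pair from Rbfox3 to Ptbp1. Ptbp1 was thus first of 8 beside the ventricle and second to last in the lateral zone. Its level stood at the 96.1 percentile of tested genes in the VZ, 91.9 in the medial MZ and 74.2 in the lateral MZ.

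Among 8809 genes with a mean of at least 5 FPKM and a named symbol, the profile closest to Ptbp1 over the 9 libraries was that of Bcl2l12, with a root mean square difference of 0.134 on the centred log2 scale, followed by Tjap1 at 0.162 and Rcor2 at 0.172; the spread of Ptbp1 itself on that scale was 0.939. Closest to Srrm4 were Zfp446 at 0.115, Srsf6 at 0.122 and Srgap3 at 0.143. Closest to Rbfox1 were Ppp2r2c at 0.338, Sptbn4 at 0.371 and Grin1 at 0.380. Rbfox2 was nearest Agap1 at 0.0752, Nrep at 0.0943 and Mfhas1 at 0.0976, and Rbfox3 was nearest Timm9 at 0.131, Ogfod2 at 0.152 and Foxp4 at 0.181. The spread of the gene itself was 0.487 for Srrm4, 1.61 for Rbfox1, 0.374 for Rbfox2 and 0.36 for Rbfox3. Distances are thus not comparable from one gene to another without these spreads. The nearest profiles are descriptions of likeness in libraries that also share depth and cell makeup.

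Other splicing genes were followed in lists around the 8. Further lists held genes of the REST axis, nonsense-mediated decay factors and transcripts with a PTB-controlled exon, and the totals include them. Over all lists, 33 of 106 genes tested were higher and 3 lower in the VZ than in the lateral MZ, or 31.1% and 2.83%, beside 10.7% and 8.93% of all tested genes; the median was 0.46, beside the all-gene median of 0.05. The total of 36 was 17, 17 and 21 without lateral MZ replicates 1, 2 and 3. In the medial MZ minus lateral MZ comparison 14 were higher (13.2%) and none lower, beside 3.58% and 0.543% of all tested genes, a count of 3 to 7 without any single medial or lateral MZ library and of 38 without VZ replicate 3. None passed between the VZ and the medial MZ, and 3 did without VZ replicate 2. The shares of all tested genes given here and below are those with all libraries, not those of the settings with libraries left out. Of 6 relatives and cofactors of PTB proteins, 4 were higher and 1 lower in the VZ than in the lateral MZ. Raver1 and Raver2, which encode corepressors that bind PTBP1, were higher by 1.06 ± 0.16 and 2.0 ± 0.34 (limma adjusted p = 0.00350 and 0.00551). Ptbp3, the third paralogue, was lower, at 7.51, 6.72 and 5.53 FPKM in the VZ, against 37.5, 14.9 and 22.3 FPKM in the lateral MZ (difference -1.69 ± 0.37, limma adjusted p = 0.0147). Ptbp1 and Ptbp3 were therefore called in opposite directions, with Ptbp2 not called.

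Of 6 SRRM and SR-related genes, 2 were higher and none lower, Tra2a by 1.17 ± 0.20 and Son by 0.53 ± 0.14 (limma adjusted p = 0.00556 and 0.0317). Srrm3, the close relative of Srrm4 with a like role in microexons, had 32, 44.0 and 4.76 FPKM in the VZ, 40.7, 45.6 and 9.70 FPKM in the medial MZ, and 45.3, 62.4 and 51.3 FPKM in the lateral MZ. Its low values were those of the shallow libraries, and its VZ minus lateral MZ difference was -1.39 ± 0.76 (limma adjusted p = 0.217). Of 11 SR proteins, 8 were higher, among them Srsf6 by 1.05 ± 0.16 and Srsf3 by 0.80 ± 0.19 (limma adjusted p = 0.00308 and 0.0205), and 1 was lower, Srsf12 (difference -1.95 ± 0.52, limma adjusted p = 0.0301). Of 18 hnRNP genes, 8 were higher and none lower, with Hnrnpf at 1.23 ± 0.21 and Hnrnpm at 1.08 ± 0.13 (limma adjusted p = 0.00546 and 0.00136). Among the uncalled genes, those highest in mean level were Srrm2, Srsf5 and Hnrnpk in these lists. Their VZ minus lateral MZ differences were 0.21 ± 0.21, 0.46 ± 0.20 and 0.55 ± 0.19 (limma adjusted p = 0.494, 0.127 and 0.0647). The median differences were 0.61 for SR and 0.58 for hnRNP genes. The share called was 33.3% for SRRM and SR-related genes, 81.8% for SR and 44.4% for hnRNP genes, beside 19.6% of all tested genes.

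**Figure D5:**
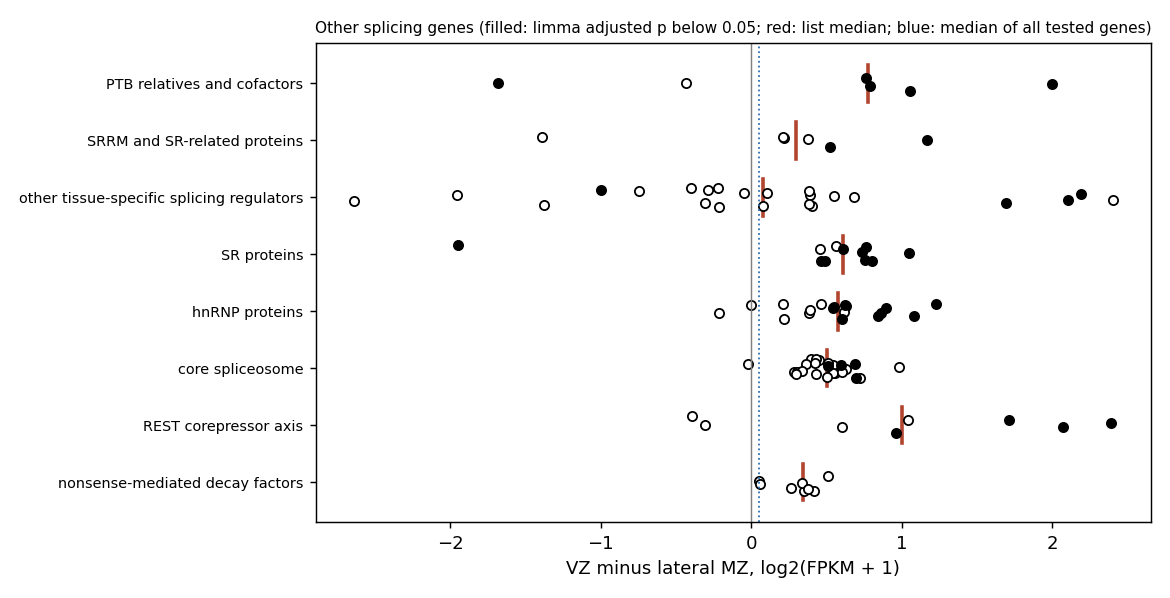
VZ minus lateral MZ difference in log2(FPKM + 1) for each tested gene of 8 lists (rows); filled points passed an adjusted p of 0.05, red bars are list medians and the dotted line is the median of all tested genes, 0.05. The list medians run from 0.08 for other tissue-specific regulators to 1.0 for the REST corepressor genes; the list of 3 transcripts with a PTB-controlled exon, with a median of -1.09, is not drawn.

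Of 23 tested genes for other tissue-specific regulators, 3 were higher and 1 lower, 17.4% beside 19.6% of all tested genes, and 4 were higher and 5 lower without VZ replicate 2. Msi1, which encodes a progenitor RNA-binding protein, had 292 ± 64.6 FPKM in the VZ and 88.0 ± 3.25 FPKM in the lateral MZ (SD, n = 3 each), a difference of 1.69 ± 0.17 (limma adjusted p = 0.000691). Rbm24 and Rbm38 were higher by 2.19 ± 0.40 and 2.1 ± 0.36 (limma adjusted p = 0.00718 and 0.00547). Celf4, named after its value was seen, was the one lower (difference -1.0 ± 0.31, limma adjusted p = 0.0478). Qk was listed on 2 rows, of which the tested one was at 0 in a library, and its rows summed to 38.4 to 98.9 FPKM in the VZ, 36.3 to 50.3 FPKM in the medial MZ and 9.77 to 19.1 FPKM in the lateral MZ. Of 24 core spliceosome genes, 4 were higher and none lower, 16.7% beside 19.6% of all tested genes, with a median of 0.51 and 7 higher without both shallow libraries, and none of 8 nonsense-mediated decay factors passed, with a median of 0.34.

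REST represses Srrm4 and other neuronal genes outside the nervous system and in progenitors, with corepressors and the phosphatases CTDSP1 and CTDSP2. Of 8 tested genes of this axis, 4 were higher in the VZ than in the lateral MZ and none was lower, 50% beside 19.6% of all tested genes. Rcor2 had 161 ± 43.5 FPKM in the VZ and 36.7 ± 5.02 FPKM in the lateral MZ (SD, n = 3 each), a difference of 2.07 ± 0.21 (limma adjusted p = 0.000670), and Ctdsp1 and Ctdsp2 were higher by 2.39 ± 0.26 and 1.71 ± 0.23 (limma adjusted p = 0.000798 and 0.00190). Rest had 4.94, 2.74 and 3.14 FPKM in the VZ, 2.1, 2.83 and 3.35 FPKM in the medial MZ, and 0.715, 0.857 and 2.28 FPKM in the lateral MZ. Its VZ minus lateral MZ difference of 1.05 ± 0.35 did not pass (limma adjusted p = 0.0615). Rest and Srrm4 were thus both highest, by mean, in the VZ, but neither passed between the VZ and the medial MZ. For Rest those zones overlapped (difference 0.28 ± 0.35, limma adjusted p = 0.758), and the 3.14 and 3.35 FPKM are from the shallow libraries. Any link between Rest and Srrm4 was not tested. Dlg4, whose transcript holds an exon that PTB proteins control, had 91.3, 135 and 33.1 FPKM in the VZ, against 161, 157 and 160 FPKM in the lateral MZ, a difference of -1.09 ± 0.40 that did not pass (limma adjusted p = 0.0841). The 33.1 FPKM are from the shallow library, without which the difference was -0.52 (limma adjusted p = 0.0678), and without VZ replicate 2 it was -1.51 and passed (limma adjusted p = 0.0116). None of the 3 listed transcripts with such an exon, Dlg4, Gabbr1 and Ptbp2, passed in any comparison. In alternative settings, Gabbr1 was called lower in the VZ than in the lateral MZ without both shallow libraries, and Gabbr1 and Dlg4 were both called lower without VZ replicate 2 and with array weights. Without both shallow libraries the counts of higher and lower genes in the VZ minus lateral MZ comparison were 4 and 2 for PTB relatives. They were 10 and 1 for SR proteins, 9 and 0 for hnRNP genes and 5 and 0 for REST genes. These counts were added after the data were seen. For this and the other list counts with libraries left out, the share of all tested genes called in the same setting is not given here. Such counts show only how the lists depend on those libraries.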

How the data were processed

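Per the labels' protocols, total RNA from microdissected zones was made into mRNA libraries and sequenced in pairs. The authors deposited FPKM values. Bowtie2 2.1.0 and mm10 are named in the submitters' processing notes; how FPKM was computed is not given in the sources. Of 38370 rows, 42 identical and 133 further repeated symbols were removed, keeping the highest mean. Genes with at least 1 FPKM in 3 of 9 libraries (14004) were tested as log2(FPKM + 1), which understates changes of low genes, with limma 3.58.1 in R 4.3.3, 1 mean per zone, a trend, and two-sided Benjamini-Hochberg adjustment within each comparison (threshold 0.05). The fit was tested on simulated data. Depth was estimated from the smallest steps of single-transcript genes of at least 1500 bp. The 8 genes and the lists were chosen with earlier results of these data known. Picked for naming were the 8 genes and, per list and comparison, up to 3 genes past the threshold by size and 1 not past it by level. Rest, Srrm3, Ptbp3, Dlg4 and the 3 closest profiles of each called gene were added. Not all of these picks are described above, and several uncalled ones are left out. Spans are from GENCODE M21. Alternatives covered the pseudocount, filter, scaling, trend, weights, block and left-out libraries. Which erythroid markers were at 0 is not reported here.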

Additional observations from a re-analysis of the deposited data

How the results depend on the processing

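Both Ptbp1 calls and the Srrm4 call kept their direction and side of the threshold in every alternative run. The Ptbp1 to Ptbp2 ratio kept its direction, with exact permutation p-values of up to 0.0393 in the alternatives. Those p-values are not adjusted over the 2 ratios, and not all of them would stay below 0.05 if they were. Over the 8 genes, 3 comparisons and 20 alternatives, 436 of 480 values kept both, 14 lost and 17 gained the call, and 13 changed sign. Nothing in the labels ties replicate numbers to an embryo or day. Correlations of same-numbered deviations ran from -0.0984 to 0.249, 8 of 9 positive and 4 over 0.1, and a library was closest to its own number in 11 of 18 cases, where unrelated numbers would give 6. The numbers were not taken as pairs, although both shallow libraries are replicate 3. With the replicate block, the Ptbp1 to Ptbp2 ratio gave an exact permutation p = 0.0278, the smallest that test can give, not adjusted over the 2 ratios. With it, 1 of the 8 genes was called in the medial minus lateral comparison, against 2 without it (Rbfox3 had a limma adjusted p = 0.0587). The other counts in that comparison were 1 with no trend, and 4 with array weights, with only the zones compared and without both shallow libraries; leaving out 1 library gave 1 to 4. Array weights, whose estimation stopped before convergence, called 5 in the ventricular minus medial comparison, where leaving out 1 library gave 0 to 1; in the ventricular minus lateral comparison leaving out 1 library gave 2 to 4. The share of all tested genes called under each of these settings is not given here. The counts therefore describe the settings and are not a result about the 8 genes. Of the 106 list genes, array weights called 17, 70 and 59 in the ventricular minus medial, ventricular minus lateral and medial minus lateral comparisons. Medial minus lateral list counts, 14 as deposited, were 9 with no filter, 7 with trimmed mean scaling, 7 with no trend, 39 with only the zones compared and 38 without both shallow libraries; leaving out 1 library gave 3 to 38 there, 17 to 47 for ventricular minus lateral and 0 to 3 for ventricular minus medial. Sign changes were in uncalled differences. Ptbp2, ventricular minus medial, was 0.0151 with quantile normalization, 0.00515 with array weights and -0.28 to 0.20 without 1 library. Without 1 library, Nova1 in that comparison was -0.29 to 0.0878, Nova2 -0.13 to 0.0455 and Srrm3 -1.11 to 0.49. Nova2 was -0.13 (ventricular minus lateral) and -0.0743 (medial minus lateral) with trimmed mean scaling, and -0.0131 to 0.17 (ventricular minus lateral) without 1 library. The cause was not tested. Counts for lists under these settings were added after the data were seen, and they too stand without the share of all tested genes. In the shallow libraries a gene below about 1 to 2 FPKM can be missed, and some genes of higher level were missed too. VZ replicate 3 had 27 genes at 0, and medial MZ replicate 3 had 15, that lay far above this level in all other libraries.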
